A study of Mus musculus with 12 samples.

Results

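The genes of cholesterol and fatty acid synthesis were followed in mouse T cells that had been cultured for 5 days under T helper 1 (Th1) conditions and then sorted. The set holds 32 genes chosen by name, 18 of sterol synthesis and its control and 14 of fatty acid synthesis, desaturation, elongation and activation. All 32 were found among the 18929 rows of the deposited table, 31 under their present symbol and Msmo1 under its older symbol Sc4mol, and all 32 passed the filter on low values. The control group has 3 libraries of wild-type C57BL/6 cells, and the cKO group has 3 libraries of C57BL/6 cells of genotype Sdhc cKO, a conditional knockout of Sdhc, which encodes a membrane subunit of succinate dehydrogenase, or respiratory complex II. The labels name no Cre driver and do not say whether the 3 libraries of a group came from separate animals. The series also has 6 libraries of 3 other groups (Slc25a1 knockout, Slc25a11 knockout and empty vector), which were not analysed here.

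Cholesterol is built from acetyl-CoA through mevalonate, isoprenoid diphosphates, squalene and lanosterol. Most enzymes of the route are transcribed under SREBP2, a membrane-bound factor that is released by proteolysis when sterols in the endoplasmic reticulum are low and is held back by INSIG1 when they are high. Fatty acid synthesis draws on the same cytosolic acetyl-CoA, which comes from citrate exported by mitochondria, and its genes respond to SREBP1. T cells that have been activated switch on both routes to make membrane for growth and division. The comparison of the cKO with the control libraries thus asks whether the transcripts of these routes differ in Th1 cells in which complex II was targeted.

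The upstream stretches of 4 sterol genes are shown as examples, and that of Fasn is set beside them as a gene of the fatty acid branch. They lie upstream of the RefSeq start site (GRCm38.p6), stop before annotated exons, and are written 5′ to 3′ on the strand of the gene. Capitals mark CCAAT boxes, the letters bound by NF-Y, on either strand (CCAAT or ATTGG) and, in Hmgcs1, also a match to the sterol regulatory element TCACNCCAC. The 4 sterol stretches each hold a CCAAT box. Those of Cyp51 (201 bases), Msmo1 (36 bases) and Dhcr7 (228 bases), cut in the same way, hold none, but this reflects the cutting. Uncut, the window of Cyp51 has a CCAAT box at -29 from the start site. That of Msmo1 has boxes at -160, -96 and -55. Dhcr7 has its boxes in the window of another start site. Whether such sequences bear on the levels in these libraries was not tested.
Hmgcs1, chr13:119690101-119690350, plus strand: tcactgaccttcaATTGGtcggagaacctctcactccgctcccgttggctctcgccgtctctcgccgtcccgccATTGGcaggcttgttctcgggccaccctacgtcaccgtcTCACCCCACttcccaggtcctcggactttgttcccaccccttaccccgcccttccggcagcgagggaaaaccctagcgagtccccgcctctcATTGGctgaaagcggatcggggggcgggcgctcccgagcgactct
Mvk, chr5:114444061-114444268, plus strand: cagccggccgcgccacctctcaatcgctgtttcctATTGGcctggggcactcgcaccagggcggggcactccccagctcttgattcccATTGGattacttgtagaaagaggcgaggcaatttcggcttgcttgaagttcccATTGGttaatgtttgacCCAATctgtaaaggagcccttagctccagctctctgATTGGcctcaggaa
Mvd, chr8:122443423-122443672, minus strand: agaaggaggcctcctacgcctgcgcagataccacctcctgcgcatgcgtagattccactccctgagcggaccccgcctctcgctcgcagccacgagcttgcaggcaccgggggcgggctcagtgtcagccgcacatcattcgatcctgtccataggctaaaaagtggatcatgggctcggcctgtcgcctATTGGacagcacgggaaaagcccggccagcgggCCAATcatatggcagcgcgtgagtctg
Lss, chr10:76531355-76531587, plus strand: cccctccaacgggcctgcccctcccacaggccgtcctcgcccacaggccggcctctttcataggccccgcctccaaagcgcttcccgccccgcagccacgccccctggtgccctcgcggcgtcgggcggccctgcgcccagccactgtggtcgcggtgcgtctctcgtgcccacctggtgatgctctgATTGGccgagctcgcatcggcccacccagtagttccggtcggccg
Fasn, chr11:120824548-120824797, minus strand: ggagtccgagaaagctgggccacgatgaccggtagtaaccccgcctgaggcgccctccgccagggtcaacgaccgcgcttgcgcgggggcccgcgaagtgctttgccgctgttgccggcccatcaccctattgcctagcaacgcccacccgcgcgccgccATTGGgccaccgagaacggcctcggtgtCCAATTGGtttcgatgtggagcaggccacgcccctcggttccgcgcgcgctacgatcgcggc

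Promoter windows from RefSeq, 250 bases before to 50 bases after a start site, were found for 14 sterol and 10 fatty acid genes, and 4 motifs and a shortened form of 1 of them were searched on both strands. CCAAT was present in all 14 sterol genes and in 6 of the 10 fatty acid genes, against 41.1% of all 27025 genes with a window. The GC box GGGCGG was present in 13 sterol and 5 fatty acid genes, against 38.2% of all genes. TCACNCCAC was found in 1 sterol gene, Hmgcs1, and in 0 fatty acid genes, against 1.44% of all genes, and the E-box CACGTG in 4 and 1, against 8.09%. The shorter form CACNCCA, which lies within TCACNCCAC, was in 4 sterol and 2 fatty acid genes, against 20.6%. In Fasn, a CCAAT and an ATTGG share letters. These are matches of letters in a window and do not show binding.

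The 6 libraries held 18144933 to 21983821 counted reads. Expression is given as normalised counts, that is reads on a gene over the size factor of its library. The targeted gene, Sdhc, had 1683, 1602.5 and 1892 normalised counts in controls 1, 2 and 3 and 1452, 1562 and 1655 in cKO 1, 2 and 3. Counts over a whole gene do not show a deletion of part of it and so do not check the labels. Cd4 had 10113 to 11045 normalised counts over the 6 libraries, while the sum of Cd8a and Cd8b1 ran from 235 to 547. Of the 10 T cell and Th1 markers, Ifng and Tbx21 were lower in every cKO library than in any control, and the others overlapped. Ifng had 1342, 1461 and 1342 normalised counts in controls 1, 2 and 3 and 858, 880 and 865 in cKO 1, 2 and 3. Its limma adjusted p was 0.265 on genotype alone, and its DESeq2 adjusted p was 1.19e-07. Tbx21 had 1660, 1961 and 1760 in controls and 1371, 1501 and 1489 in cKO (log2 fold change -0.30). Summed markers of NK cells (5 genes, 465 to 516 in control, 334 to 407 in cKO) and of gamma delta T cells (4 genes, 269.5 to 330 in control, 173 to 238 in cKO) were lower in every cKO library than in any control. No NK gene was so on its own, and Klrb1c and Eomes were higher in cKO 1 than in control 1. Of the gamma delta genes, Tcrg-C1 and Tcrg-C4 were so, while Sox13 and Tcrg-C2 overlapped and Trdc was not in the table. The sums do not show which cells held these transcripts. The part of these marker differences and of the sex-linked differences in the comparisons of genotypes was not tested. The 2 fat and liver markers in the table, Plin1 and Alb, summed to at most 5.02 normalised counts in any library. Libraries within a group differed in sex-linked transcripts: reads on 4 Y-linked genes were 0.048 and 0.207 RPM (relative to all counted reads) in control 1 and cKO 1, and 131 and 193 in control 2 and cKO 2. In control 3 and cKO 3 they were 55.1 and 189. The normalised counts of Xist, which silences an X chromosome in female cells, were 9779.6, 2490.5 and 6406 for controls 1, 2 and 3, and 7565, 0 and 2.15 for cKO 1, 2 and 3. Controls 2 and 3 thus held both Xist and Y-linked reads, while cKO 2 and 3 held Y-linked reads with Xist at or near 0. On the first principal component of all tested genes (49.1% of the variance), control 1 and cKO 1 lay on one side and the other 4 libraries on the other. On the second (18.6%) the groups did not overlap. Controls 1, 2 and 3 lay at 20.4, 17.0 and 0.73, and cKO 1, 2 and 3 at -9.99, -10.6 and -17.6.

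Transcripts of both routes were present in these cells. Per kb of exon in the control libraries, Scd2, a desaturase that puts the double bond into saturated fatty acids, had the highest level of the 32 genes, a mean of 4966 normalised counts per kb. Its close relative Scd1, the main form in liver, had a mean of 40.9 per kb. Among the sterol genes Fdps (farnesyl diphosphate synthase) stood at 3944 per kb and Hmgcs1, which makes HMG-CoA, at 2679 per kb, and the lowest was Hsd17b7 at 229 per kb. Fasn, the fatty acid synthase, had 1085 per kb. Acaca, the acetyl-CoA carboxylase that supplies it with malonyl-CoA, had 224 per kb and the related Acacb, whose malonyl-CoA is made at the mitochondrial surface, 17.3 per kb. Srebf2 (1645 per kb) lay above Srebf1 (621 per kb) in every library.

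**Figure D1:**
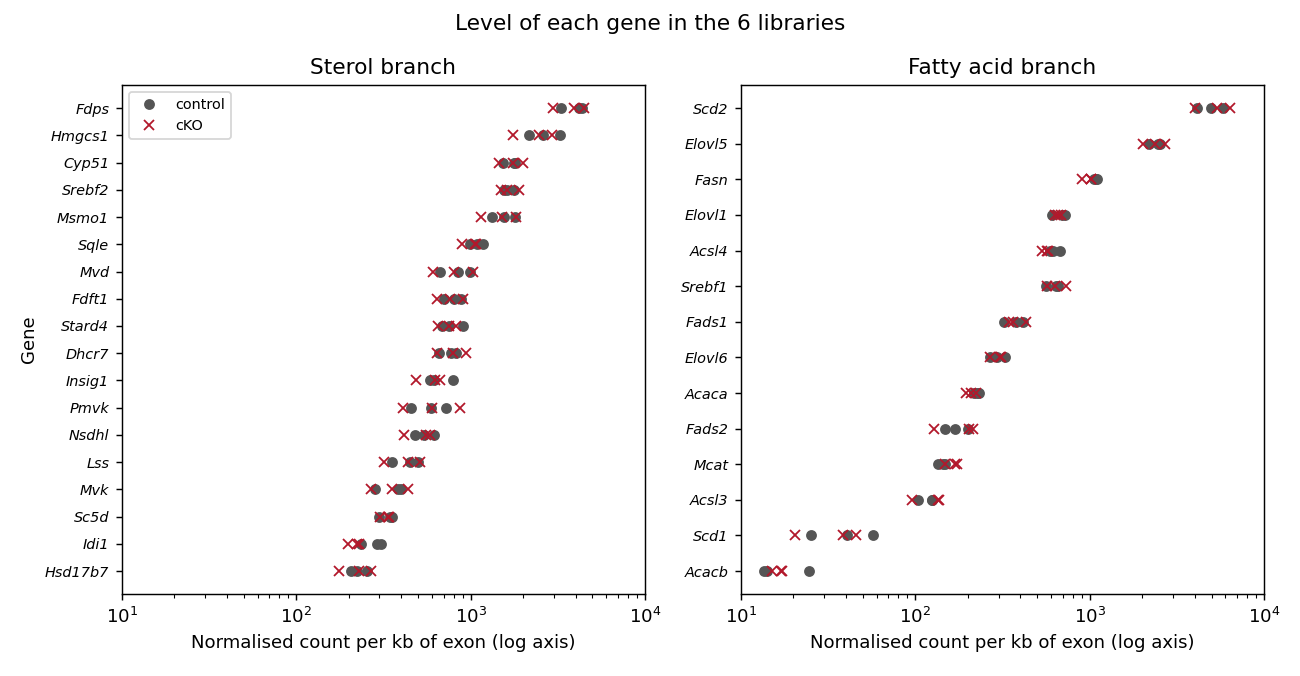
Normalised count per kb of exon (horizontal, log axis) for each of the 18 sterol genes (left) and 14 fatty acid genes (right), with a point for each of 3 control (grey circles) and 3 cKO (red crosses) libraries. Scd2 and Elovl5 lead the fatty acid genes and Scd1 and Acacb are lowest. The points of the 2 groups overlap for 28 of the 32 genes.

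No gene of either route differed between the genotypes past the test. Of the 18 sterol genes 14 had negative fold changes (cKO over control) and 4 positive, with a median log2 fold change of -0.06. Of the 14 fatty acid genes 7 were negative and 7 positive, with a median of -0.01. Over all 12699 tested genes the median was -0.01 and 54.1% were negative. In limma 0 of the 32 genes had an adjusted p under 0.05 (smallest adjusted p 0.978), and the share over all tested genes was 0%. At an unadjusted p under 0.05 there was 1 of the 32 genes, Idi1, against 3.5% of all tested genes. On recovered reads, edgeR and DESeq2 also called 0 of the 32 after adjustment, against 0% and 0.0157% of all tested genes, and each gave 1 of the 32 at an unadjusted p under 0.05, against 3.58% and 2.3%. The 95% intervals were wide: in the sterol branch they reached from -0.67 for Hmgcs1 to 0.69 for Pmvk on the log2 scale, and in the fatty acid branch from -1.09 to 0.62, both bounds for Scd1.

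The sign of the medians rested on single libraries. The sterol median was -0.19 without cKO 1 and -0.17 without control 2, but 0.10 without cKO 2 and 0.04 without control 1. It was -0.10 without control 1 and cKO 1 together. With the share of Y-linked reads as a covariate it turned to 0.09, and 13 of the 32 genes changed sign. That share was itself higher in cKO 2 and 3 than in controls 2 and 3, so it is partly tied to genotype. With this covariate 0 of the 32 genes passed (smallest limma adjusted p 0.121), against 6.5% of all tested genes, and 5 of the 32 had an unadjusted p under 0.05, against 25.8%. In edgeR with the covariate 0 of the 32 passed as well, against 5.28% of all tested genes. Between same-numbered libraries the sterol medians were 0.04, -0.16 and -0.03 for numbers 1, 2 and 3, and the fatty acid medians -0.02, -0.04 and 0.02. In all 3 of these comparisons 7 of the 32 genes (21.9%) were lower in cKO and 1, Mcat, higher, against 21.8% and 14.7% of all tested genes.

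**Figure D2:**
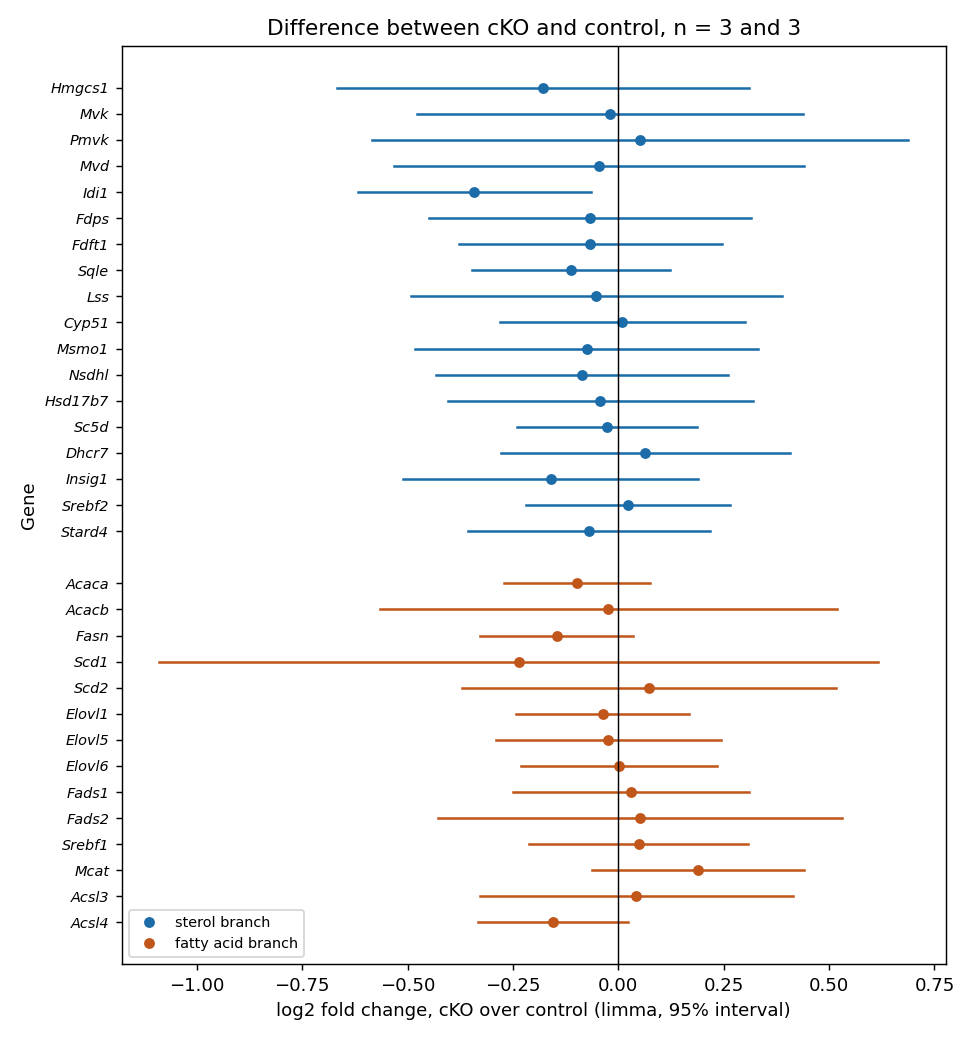
Log2 fold change of cKO over control (horizontal) for each of the 32 genes, with the 95% interval of limma (n = 3 and 3). Blue marks sterol and orange fatty acid genes. The interval of Idi1 (-0.62 to -0.07) lies below 0, and the other 31 intervals include 0.

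The spread that the sterol genes did show ran between libraries of the same genotype. In all 18 sterol genes the lowest control was control 2 and the lowest cKO library was cKO 2, against 17.6% of all tested genes. In 14 of the 18, library 1 was highest and library 3 in between in both groups, against 10.6% of all tested genes. Control 1 exceeded control 2 by a median of 0.37 on the log2 scale over the 18 genes, with a range from 0.19 (Srebf2) to 0.66 (Pmvk). The same difference between cKO 1 and cKO 2 had a median of 0.53, with a range from 0.15 (Sc5d) to 1.10 (Pmvk). Over all tested genes these 2 medians were 0.01 and -0.01. The replicate number thus took a median of 90.6% of the variance among the 6 values of a sterol gene and the genotype 2.50%. The medians over all tested genes were 57.0% and 12.1%. The number has more levels than the genotype and so takes a larger share even without any effect. Each share is therefore to be read against that of all tested genes, and the labels state no pairing by number.

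This order did not depend on the scaling. With TMM factors, upper-quartile factors or library totals, libraries 2 were again lowest in both groups for all 18 sterol genes, against 18.5%, 21.4% and 18.5% of all tested genes. Other transcripts differed between the same libraries. Control 2 and cKO 2 had the highest sums of CD8 T cell markers in their groups (368 and 547 normalised counts) and the most Y-linked reads. Their sums of B cell markers were also highest (1978 and 2069.8), but mostly Ighm, with Ms4a1 at 10 or less in each library. The B cell gene Cd79a was instead lowest in control 2 and cKO 2 (15.7 and 17.2), and Cd79b was highest in control 2 but not in cKO 2. The low sums of dendritic cell (83.3 and 88.6) and erythroid markers (93.1 and 33.4) were highest there too, though not each of their genes was. The part of these differences in the sterol pattern was not tested, and in bulk samples a lower share of cells and less RNA per cell cannot be told apart.

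**Figure D3:**
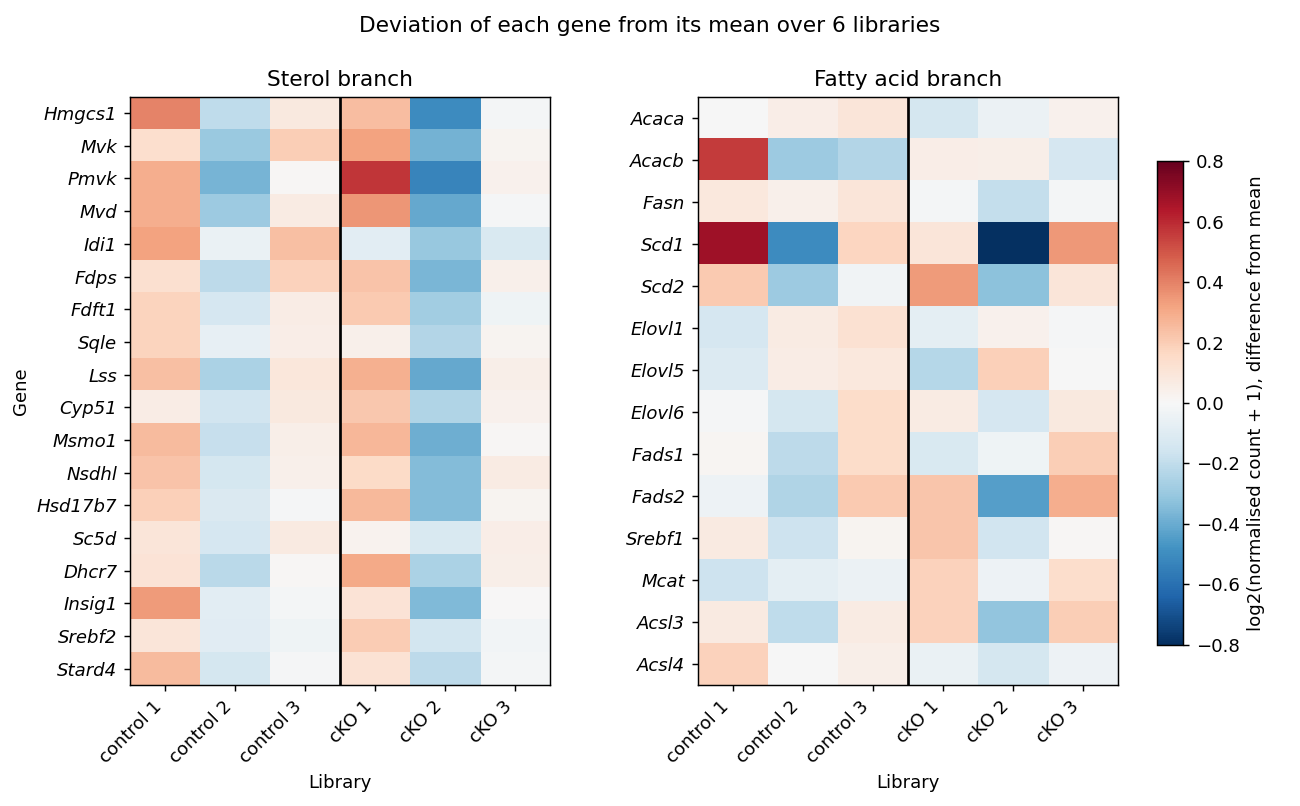
Colour shows how far each library (columns) lay from the mean of the 6 libraries for each gene (rows), on the log2(normalised count + 1) scale. The vertical line separates controls from cKO libraries. The 18 sterol genes are lowest in control 2 and cKO 2 within their groups, while 6 of the 14 fatty acid genes depart from this.

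In the mevalonate steps, Idi1 stood apart. It encodes isopentenyl diphosphate isomerase, which makes the allylic building block of isoprenoids (chromosome 13, 8885501 to 8892451, plus strand, GRCm38). Its normalised counts were 926, 714 and 874 in controls 1, 2 and 3 and 697, 599 and 679 in cKO 1, 2 and 3. Every cKO value lay below every control value, although cKO 1 was close to control 2. The means of 838 ± 111 and 658 ± 52.1 (SD, n = 3 each) correspond to 78.6% of the control level and to a log2 fold change of -0.34 (SE 0.12). Idi1 was not called (limma adjusted p = 0.978; with the replicate block 0.244), the exact permutation p was 0.1, the smallest that 3 against 3 allows, and under TMM or upper-quartile scaling the groups overlapped. Its exons overlap those of Gm48574 on the opposite strand. In all, 12 of the 32 genes share exon sequence with another annotated gene, Mcat and Fdft1 among them, and the strand setting of the counting is not known here.

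Hmgcs1, at the entry to the route, had control values of 11367, 7508 and 9111 and cKO values of 10267, 6107 and 8557 (normalised counts, libraries 1 to 3). Each cKO library lay below the control of the same number, but the groups overlapped widely. Its log2 fold change was -0.18 (SE 0.21, 95% interval -0.67 to 0.31). Mvk, Pmvk and Mvd, which phosphorylate and decarboxylate mevalonate, had log2 fold changes of -0.02, 0.05 and -0.05. Pmvk varied most among the sterol genes, from 698 in cKO 2 to 1495 in cKO 1. Fdps, which joins the isoprenoid units to farnesyl diphosphate, had control values of 6073, 4808 and 6311 and cKO values of 6504, 4321 and 5707 (normalised counts, libraries 1 to 3). Control 2 and cKO 2 were the low libraries here as well, and its log2 fold change was -0.07 (SE 0.16).

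From the making of squalene onward, the 9 enzymes had log2 fold changes between -0.11 and 0.06. Fdft1, which commits the route to sterols by making squalene, had -0.07 (SE 0.13), and Sqle, the squalene epoxidase and a slow step of the route, -0.11 (SE 0.10). Lss, which closes the ring to lanosterol, had -0.05 (SE 0.19). Cyp51, the demethylase of lanosterol, had control values of 7017, 6064 and 7101 and cKO values of 7830, 5704 and 6902 (normalised counts, libraries 1 to 3). The highest and the lowest of these 6 values were both in cKO libraries, and its log2 fold change was 0.01 (SE 0.13). Msmo1, Nsdhl and Hsd17b7, which together remove the methyl groups at carbon C4, had -0.08, -0.09 and -0.04. Sc5d and Dhcr7, which place and remove double bonds late in the route, had -0.03 (SE 0.09) and 0.06 (SE 0.15).

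The regulators of the sterol branch were lowest in libraries 2 as well. Srebf2, the gene of SREBP2, had control values of 8978, 7880 and 8189 and cKO values of 9657, 7603 and 8264 (normalised counts, libraries 1 to 3), which gave 0.02 on the log2 scale (SE 0.10, 95% interval -0.22 to 0.26). Insig1, a target of SREBP that feeds back on it, had control values of 2128, 1587 and 1660 and cKO values of 1809, 1316 and 1685. The groups overlapped, and the log2 fold change was -0.16 (SE 0.15). Stard4, a carrier of cholesterol between membranes, had -0.07 (SE 0.12).

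In the fatty acid branch 3 of the 14 genes had groups without overlap, Fasn and Acsl4 lower and Mcat higher in cKO. With Idi1 this made 4 of the 32 genes (12.5%), against 10.2% of all tested genes, 4.51% with cKO higher and 5.64% with cKO lower. The pooled share thus lay near that of all genes. By branch it was 21.4% of the 14 fatty acid genes and 5.56% of the 18 sterol genes, and both rest on few genes. Fasn (chromosome 11, 120805846 to 120824547, minus strand), which builds palmitate from acetyl-CoA and malonyl-CoA, had control values of 10984.5, 10642 and 11084 and cKO values of 10262, 9088 and 10264 (normalised counts, libraries 1 to 3). The controls lay close together and cKO 2 was lowest. The means were 10904 ± 232 and 9871 ± 678 (SD, n = 3 each), 90.5% of control, or -0.15 on the log2 scale (SE 0.08), and limma gave an adjusted p = 0.978. Acsl4 (chromosome X, 142317993 to 142390535, minus strand) encodes an acyl-CoA synthetase with a preference for arachidonate. It had control values of 3582, 3147 and 3261 and cKO values of 3041, 2852 and 3068, which gave -0.16 on the log2 scale (SE 0.08, limma adjusted p = 0.978). Under upper-quartile scaling the groups overlapped for Fasn and for Acsl4.

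Mcat differs from the rest of the branch in that its product, malonyl-CoA-acyl carrier protein transacylase, works in the fatty acid synthesis of mitochondria, which makes the precursor of lipoic acid. It had control values of 260, 276 and 283 and cKO values of 331, 283 and 322 (normalised counts, libraries 1 to 3). All cKO values were higher, with cKO 2 within 1 normalised count of control 3. The means of 273 ± 11.6 and 312 ± 25.7 (SD, n = 3 each) differed by 0.19 on the log2 scale (SE 0.11), with a limma adjusted p = 0.978. Its groups stayed apart under all 3 other scalings. Exons of Mcat overlap those of Tspo on the opposite strand. Tspo had means of 1624 in control and 1613 in cKO, a difference of -0.01 on the log2 scale (SE 0.07). None of the 8 other tested genes of mitochondrial fatty acid synthesis had groups without overlap, and their median log2 fold change was -0.03.

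**Figure D4:**
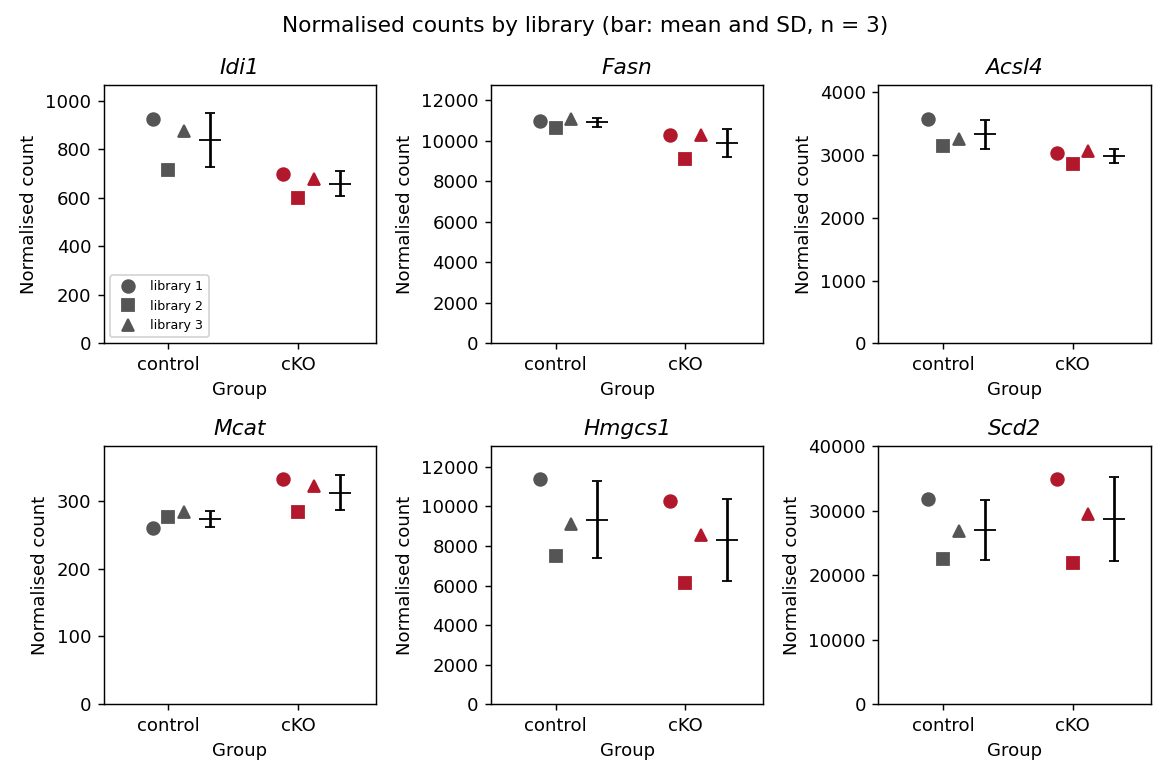
Normalised counts (vertical, from 0) of Idi1, Fasn, Acsl4, Mcat, Hmgcs1 and Scd2 in each library, controls in grey and cKO in red. Circles, squares and triangles are libraries 1, 2 and 3, and the bar beside them gives the mean and SD (n = 3). The groups of Idi1, Fasn, Acsl4 and Mcat do not overlap, whereas those of Hmgcs1 and Scd2 do, with library 2 lowest in both groups.

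The desaturases followed the order of the sterol genes in part. Scd2 had control values of 31839, 22498 and 26933 and cKO values of 34885, 21872 and 29440 (normalised counts, libraries 1 to 3), with library 1 highest and library 2 lowest in both groups. Its log2 fold change was 0.07 (SE 0.19). Scd1 had control values of 277, 122 and 195 and cKO values of 185, 98.5 and 220, the widest spread of all 32 genes. Its groups overlapped, and the log2 difference was -0.24 (SE 0.37). As the 2 genes are related in sequence, how the counting placed shared reads could affect the low values of Scd1. The desaturases of polyunsaturated fatty acids, Fads1 and Fads2, differed by 0.03 (SE 0.12) and 0.05 (SE 0.21) on the log2 scale.

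Among the elongases, Elovl5, which lengthens polyunsaturated fatty acids, had control values of 6106, 6887 and 6998 and cKO values of 5640, 7536 and 6597 (normalised counts, libraries 1 to 3), with libraries 1 lowest in both groups, unlike the sterol genes. Its log2 fold change was -0.02 (SE 0.12). Elovl1, which acts on very long chains, and Elovl6, which extends palmitate, had -0.04 (SE 0.09) and 0.00 (SE 0.10). Acaca had -0.10 (SE 0.08) and was lower in cKO in each of the 3 same-numbered comparisons. Acacb had -0.02 (SE 0.23), and Acsl3, which activates fatty acids on lipid droplets and the endoplasmic reticulum, 0.04 (SE 0.16). Srebf1, the gene of SREBP1, had control values of 2843, 2414 and 2751 and cKO values of 3153, 2432 and 2722 (normalised counts, libraries 1 to 3). Libraries 2 were lowest again, the groups overlapped, and the log2 fold change was 0.05 (SE 0.11).

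With the replicate number as a block the SEs became smaller while the fold changes stayed the same, and 0 of the 32 genes passed (smallest limma adjusted p 0.244, Idi1), against 0.00787% of all tested genes. At an unadjusted p under 0.05 the block gave Idi1, Hmgcs1, Fasn and Acsl4, all lower in cKO. These 4 of 32 (12.5%) stand against 12.6% of all tested genes in the same fit, so the share was that of the table as a whole. For Hmgcs1 the SE fell from 0.21 to 0.07 with the block.

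Of 99 further genes of lipid metabolism in 7 lists, 96 were in the table, 91 were tested and 0 passed (limma, genotype alone), with 2 at an unadjusted p under 0.05, against 3.5% of all tested genes. Groups did not overlap at 6 of the 91 (6.59%), against 10.2% of all tested genes. Among the 10 genes of the isoprenoid side branch, 8 were on the lower side in cKO, against 54.1% of all tested genes. Their median log2 fold change was -0.09. Coq2, which attaches the side chain of coenzyme Q, had control values of 657, 777 and 748 and cKO values of 597, 633 and 624 (normalised counts, libraries 1 to 3), a log2 fold change of -0.23 (SE 0.09). Pdss2, which helps make that side chain, had -0.11 (SE 0.12). Both had all cKO values below the controls, and neither passed (limma adjusted p = 0.978 each). Of the 10 genes, 3 had groups without overlap with cKO lower, against 5.64% of all tested genes. The third was Pggt1b, of geranylgeranyl transfer to proteins. There was 1 with cKO higher, against 4.51% of all tested genes, and both counts rest on few genes. The gene higher in cKO was Rabggta, which helps attach geranylgeranyl groups to Rab proteins, with a log2 fold change of 0.10. Pggt1b and Rabggta are named here after their values were seen.

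Genes that supply acetyl-CoA and NADPH were on the lower side in cKO at 7 of 10, against 54.1% of all tested genes. Their median log2 fold change was -0.14, which turned to 0.03 with the Y-linked covariate. Acly, which splits exported citrate into the acetyl-CoA for both routes, had control values of 9506, 9408 and 10261 and cKO values of 8489.6, 8523 and 9273 (normalised counts, libraries 1 to 3). Its groups did not overlap, and its log2 difference of -0.15 (SE 0.08) was close in size to that of Fasn, with a limma adjusted p = 0.978. Among the 16 genes of sterol uptake, efflux and storage, 10 had positive fold changes and the median was 0.03. Abcg1, an exporter of cholesterol induced by LXR, had control values of 1464, 1327 and 1459 and cKO values of 1791, 1471 and 1707. Its groups did not overlap, and the log2 difference was 0.22 (SE 0.09). It did not pass on genotype alone (limma adjusted p = 0.978) and did with the Y-linked covariate (limma adjusted p = 0.0492).

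The remaining lists had no gene without overlap. Other genes of sterol synthesis and SREBP control had a median of -0.04 over 15 tested genes, and the most abundant, Lbr, which carries a sterol reductase domain, had a log2 fold change of 0.05 (SE 0.09). Other genes of fatty acid synthesis and elongation had a median of -0.05 over 15, with Acsl5, a mitochondrial acyl-CoA synthetase, at -0.01 (SE 0.10). Fatty acid oxidation, the opposing route, had a median of -0.02 over 17, with Hadha of the trifunctional protein at -0.04 (SE 0.08). In mitochondrial fatty acid synthesis Ndufab1, the acyl carrier protein, had -0.11 (SE 0.13). In these 4 lists, libraries 2 were lowest in both groups for 5 of 15, 3 of 15, 5 of 17 and 0 of 8 genes. The counts were 2 of 10 in the isoprenoid side branch, 5 of 16 in sterol uptake, efflux and storage, and 3 of 10 in acetyl-CoA and NADPH supply. They stand against 17.6% of all tested genes, 18 of 18 in the sterol branch and 8 of 14 in the fatty acid branch.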

How the data were processed

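RNA-seq libraries were made from sorted cells with an Illumina TruSeq kit, per the labels' protocols. The deposited table holds a signal per gene and library which, from its values, is gene counts over a size factor. STAR, HTSeq, DESeq2 and mm10 are named in the submitters' processing notes; versions, annotation and strand setting are not stated in the sources used. All values were whole multiples (within 0.01) of the smallest above 0, which gave back the reads; in cKO 1, where a read is worth almost 1, this check is weaker.

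Genes above 10 in 3 or more libraries were tested with limma-trend (version 3.58.1 in R 4.3.3). It was run on log2(value + 1), a scale that understates changes of low genes, on genotype alone, and p-values were adjusted over all tested genes (Benjamini-Hochberg, 0.05). Since the labels name no separate animals or cultures, p-values reflect only how far these libraries differ among themselves, possibly for technical reasons. Only the limma fit on genotype alone was run on simulated data. The simulated counts held no effect of the replicate number. They therefore do not show how the fit does where libraries differ as here, and the alternatives were not simulated. Alternatives used edgeR 4.0.16 and DESeq2 1.42.0. Members, lists, tests and alternatives were chosen with earlier results of these data known, and edgeR with the covariate after the files were seen. Values per library are given for genes without overlap, the 3 largest changes and highest levels per branch and 3 regulators; from each further list up to 2 genes without overlap or the most abundant.

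Libraries with the same number deviated together for numbers 1 and 2 and less clearly for number 3, although the labels state no pairing. Their correlations across genes, after the group mean was removed, were 0.579, 0.458 and 0.188 for numbers 1, 2 and 3. Between different numbers, control 2 with cKO 3 gave 0.272, above that of number 3, and control 3 with cKO 2 gave 0.091. The rest were negative (-0.504 to -0.179). Levels per kb use exons of GENCODE M21 protein-coding transcripts (GRCm38, the assembly of mm10).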

Additional observations from a re-analysis of the deposited data

How the results depend on the processing

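None of the 32 genes passed under any alternative run, including other pseudocounts, filters and scalings, DESeq2, edgeR, limma-voom, array weights, the replicate block, the Y-linked covariate and each library left out. The replicate block changed no call among them. Over all genes 0 passed in the main test, 1 with array weights, 1 with the replicate block, 2 with DESeq2, 826 with the Y-linked covariate in limma and 670 with it in edgeR, and 0 to 1 with libraries left out; the cause was not tested. The sterol count without overlap and lower in cKO, 1 as deposited, was 0 with TMM or upper-quartile scaling and so with edgeR and limma-voom, which use TMM, and 1 to 3 with libraries left out. The fatty acid count of lower genes, 2, was 0 with upper-quartile scaling and 2 to 4 with libraries left out, and that of higher genes, 1, was 1 to 3; leaving out libraries loosens this criterion by itself. The branch medians ranged from -0.19 to 0.10 (sterol) and from -0.06 to 0.06 (fatty acid) with libraries left out. With upper-quartile factors 6 genes of the 32 changed sign (Mvk, Hsd17b7, Sc5d, Acacb, Elovl1 and Elovl5). Counts without overlap are not defined by the block, covariate or weights. With 3 libraries a group, the 95% intervals show how imprecise each fold change is. They are not adjusted for the number of genes, so a call needs a clearer change. The interval of Idi1 (-0.62 to -0.07) excluded 0, yet its limma adjusted p was 0.978.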

Other observations

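With the Y-linked covariate, 8 of the 91 tested genes of the further lipid lists passed (8.79%, limma adjusted p under 0.05), against 6.5% of all tested genes; they are named here after their values were seen. Higher in cKO were Abcg1, the cholesterol carrier gene Npc2 (log2 fold change 0.45 with the covariate, adjusted p = 0.0101) and the acetate-activating genes Acss2 (0.65, adjusted p = 0.0113) and Acss1 (0.59, adjusted p = 0.0187). Lower were the lipid carrier gene Fabp5 (-0.74, adjusted p = 0.00913), the lipoprotein receptor gene Vldlr (-1.88, adjusted p = 0.0112), the SREBP escort gene Scap (-0.27, adjusted p = 0.042) and G6pdx of the pentose phosphate pathway (-0.32, adjusted p = 0.0423). For Vldlr the direction rests on the covariate and on libraries 1: its normalised counts were 17.6, 105.9 and 52.8 in controls 1, 2 and 3 but 4.02, 109.4 and 65.6 in cKO 1, 2 and 3. Its group means were 58.7 and 59.7, cKO 2 and 3 lay above their controls, and the fold change without the covariate was -0.51 in limma (SE 1.14) and 0.03 in DESeq2. On genotype alone none of these 8 passed, and the groups overlapped in all but Abcg1. Acss2 had control values of 475, 300 and 394 and cKO values of 754, 342 and 418 (normalised counts, libraries 1 to 3), and each cKO library lay above the control of the same number. Fabp5 had control values of 511, 759 and 681 and cKO values of 326, 567 and 524, each below the control of the same number. The covariate leaves 3 residual degrees of freedom, and control 1 and cKO 1 lie at its low end together. The Y-linked reads were also higher in cKO 2 and 3 (193 and 189 RPM) than in controls 2 and 3 (131 and 55.1). The covariate is thus partly tied to genotype, and fold changes fitted with it depend on how it is modelled.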
